A study of Mus musculus with 6 samples.

Results

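The natriuretic peptide system was examined through 9 genes in atrial RNA of old mice: the ligand genes Nppa, Nppb and Nppc, the receptor genes Npr1, Npr2 and Npr3, and the protease genes Corin, Furin and Mme. The genes were taken by name, with no threshold on their values, out of the 54838 genes of the count table, and each was matched to its Ensembl identifier. Of the 9, 8 passed the low-count filter and were among the 14708 genes tested, and Nppc did not pass.

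Atria from mice lacking the epsilon isoform of protein kinase C (PKC-epsilon; gene Prkce) were set against atria from wild-type (WT) mice, with 3 libraries per group, each labelled as a biological replicate. The knockout (KO) mouse line is labelled JAX stock 004189 and the WT line C57BL/6J; all mice were old, at an average age of 20.9 ± 0.43 months (the kind of error is not given), both sexes were used, and no treatment is labelled. The labels do not describe the KO allele further, do not give the sex of each mouse and do not say whether any animals were pooled.

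The labels contradict each other on the genotype of 4 of the 6 libraries, so every comparison below was made by each reading of them. By library name, which heads the columns of the table, the groups are KO replicates 1, 2 and 3 and WT replicates 1, 2 and 3, and these names are used for single libraries throughout. Under the genotype field, which also carries the mouse line, the KO group is KO replicate 1, WT replicate 2 and WT replicate 3, and the WT group is KO replicate 2, KO replicate 3 and WT replicate 1. Library names starting with Old belong to KO replicate 1 and WT replicate 1, and the other 4 names start with a number; what this naming stands for is not given.

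The targeted gene did not settle the reading. Prkce was at 9.19, 5.14 and 28.6 CPM (counts scaled to library size) in KO replicates 1, 2 and 3, against 36.2, 11.7 and 30.2 CPM in WT replicates 1, 2 and 3. KO replicate 3 and WT replicate 2 are therefore at odds with their library names, and KO replicate 2 and WT replicate 3 with their genotype fields. Total counts ran from 11574206 to 24138824 per library. Summed Y-linked genes were at 78.8 to 126 CPM in the libraries named KO, against 1.08, 1.09 and 146 CPM in those named WT. Both low libraries are named WT, so group and Y-linked level, which differs by sex, are partly mixed in every comparison by library name. Under the genotype field the low libraries fall in different groups. The atrial label held: all 8 atrial cardiomyocyte markers were detected, and their sum was 22086 to 25840 CPM in all 6 libraries. By library name the sums did not overlap, at 24100 to 25840 CPM in KO and 22086 to 23577 CPM in WT. Of the 8 markers, 5 had a positive and 3 a negative fold change in that reading, and 0 passed the test described below. The part of this in the natriuretic levels was not tested.

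Natriuretic peptides are hormones that cardiac muscle cells release when they are stretched, and the atrium is the main source of the atrial peptide ANP, cut from the product of Nppa. ANP and the B-type peptide BNP, from Nppb, bind the receptor encoded by Npr1, and the C-type peptide CNP, from Nppc, binds that encoded by Npr2; both receptors are guanylyl cyclases that make cyclic GMP (cGMP), which relaxes vessels and promotes salt excretion. The receptor encoded by Npr3 takes the peptides up for degradation. Corin cuts pro-ANP on the surface of cardiac muscle cells, furin cuts pro-BNP and pro-CNP in the secretory pathway, and neprilysin, encoded by Mme, degrades the circulating peptides.

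No natriuretic gene passed the test in either reading. Nppb, the BNP gene, varied most of the 8 between libraries, and Corin, the ANP convertase, was the member with the smallest unadjusted p by library name. By library name, KO atria gave 5 tested members above and 3 below WT atria in fitted log2 fold change, where 45.5% of all genes were above, and 0 passed at adjusted p 0.05 (edgeR's quasi-likelihood test with Benjamini-Hochberg adjustment over all 14708 genes). That was the background too: percent called was 0 over all genes. Without adjustment, 0 of the 8 members had p under 0.05, against 219 genes, or 1.49%, of all tested (223 with DESeq2 and 236 with limma-voom). KO and WT libraries overlapped for all 8 members, while they did not overlap for 5.95% of all genes tested. With the genotype field, 4 members were above and 4 below, where 48.1% of all genes were above. Of the 8, 0 passed, against 0.0136% of all genes, and 1, Furin, had an unadjusted p under 0.05, against 5.69% of all genes. In this reading KO and WT libraries did not overlap for 2 members, Furin and Npr2, against 12% of all genes tested. Bulk atrial RNA was measured, so fewer cells of a type and less RNA per cell cannot be told apart.

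**Figure D1:**
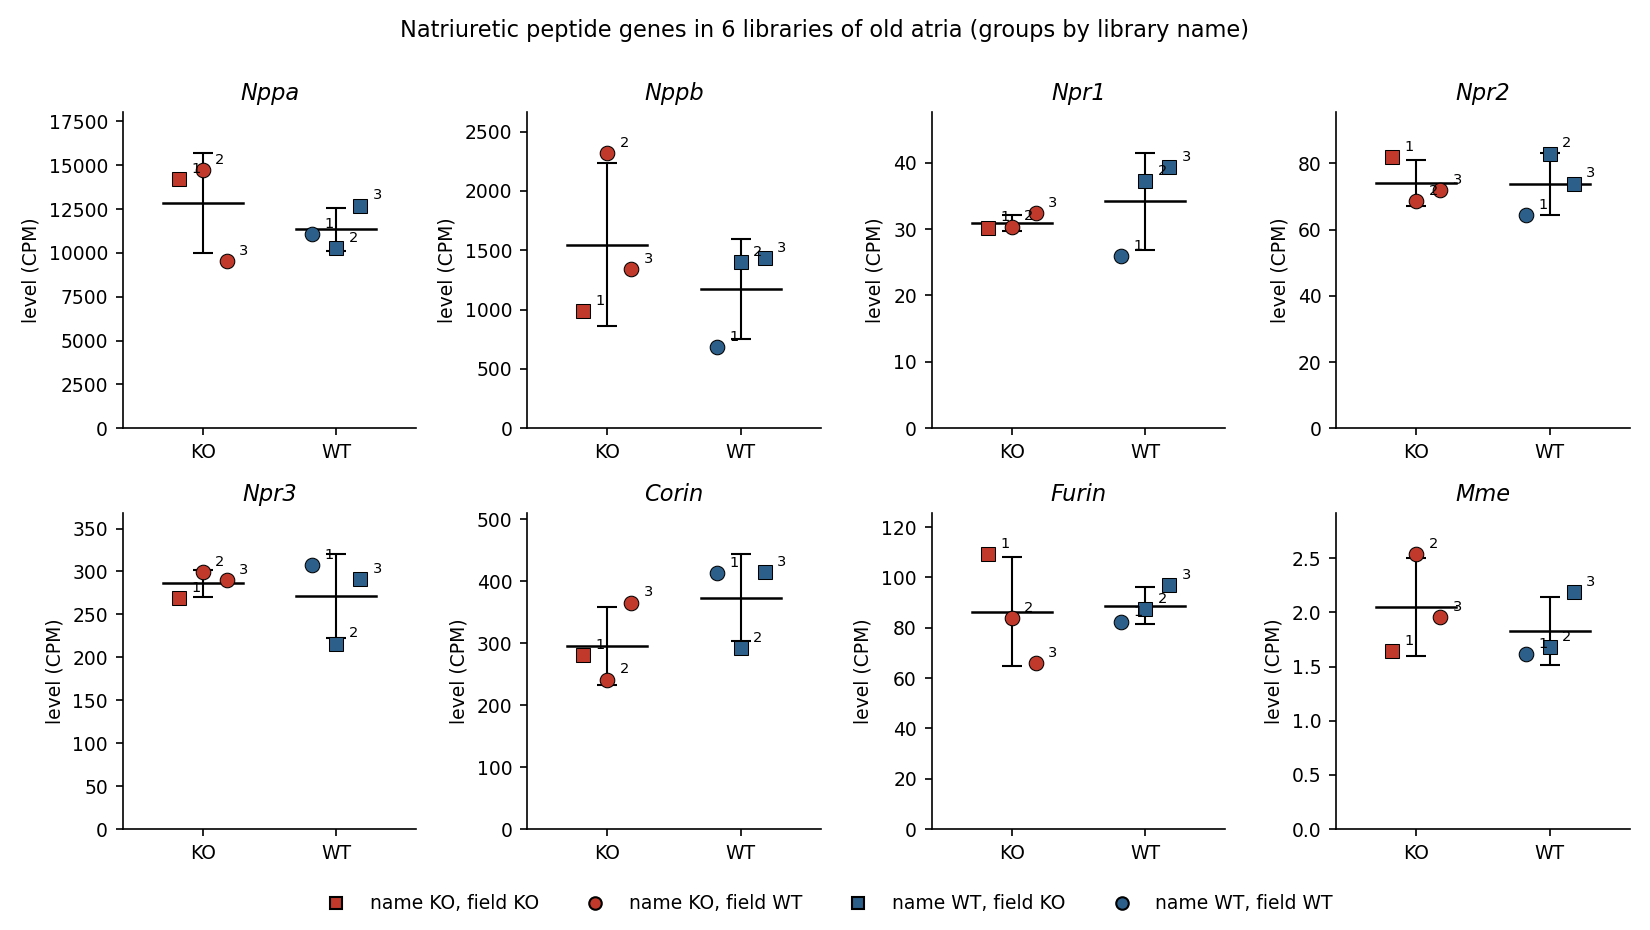
Level in CPM (y axis, from 0, a separate scale per gene) of the 8 tested natriuretic genes in each library, with KO left of WT by library name; numbers give the replicate, squares are libraries whose genotype field says KO and circles those whose field says WT, and lines and bars are the mean ± SD (n = 3). KO and WT points overlap in every panel, and Nppb is lowest in replicate 1 of each group.

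Nppa and Nppb lie side by side on mouse chromosome 4 (GRCm38, plus strand), Nppb (ENSMUSG00000029019) at 147985788 to 147987205 and Nppa (ENSMUSG00000041616) at 148000722 to 148002079, with 13516 bases between the end of Nppb and the start of Nppa. The sequence just before each start is shown because the transcription factors measured below are known for acting through such sites on these ligand genes. Capitals mark matches on either strand. For GATA factors the letters AGATAA were searched, as well as the variant that starts with T, TGATAA. For the homeobox factor NKX2-5 the letters were AAGTG, for T-box factors GGTGTG and for TEAD factors CATTCC, and for serum response factor the CArG box was searched; no matches overlapped. The sequences are from RefSeq on GRCm38.p6, 5′ to 3′ on the plus strand, and end on the base before the GENCODE start; RefSeq starts Nppb later, at 147985900.
Nppa, chr4:148000472-148000721: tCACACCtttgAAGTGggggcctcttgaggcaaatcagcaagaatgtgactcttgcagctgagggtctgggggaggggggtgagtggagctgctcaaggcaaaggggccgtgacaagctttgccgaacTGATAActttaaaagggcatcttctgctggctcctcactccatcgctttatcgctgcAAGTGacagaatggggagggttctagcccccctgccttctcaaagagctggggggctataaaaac
Nppb, chr4:147985650-147985787: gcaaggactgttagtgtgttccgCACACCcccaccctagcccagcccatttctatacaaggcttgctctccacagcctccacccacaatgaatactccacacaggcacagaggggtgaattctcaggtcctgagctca
The 250 bases before Nppa hold 1 GATA match, 122 bases before the start, 2 AAGTG matches, at 239 and 65 bases, and 1 T-box match on the minus strand at 249 bases. Of 32851 mouse promoter windows of that length, 16.6% hold the GATA match, 40.7% AAGTG and 16.3% the T-box match. The 138 bases before the GENCODE start of Nppb hold 1 T-box match, on the minus strand at 115 bases. The background for it is the first 138 bases of stretches that begin 250 bases before a RefSeq start, and 9.21% of these hold the match. The bases between the GENCODE and the RefSeq start of Nppb, which lie just before the RefSeq start, were not searched. No TEAD or CArG match was found in either window, nor a GATA or AAGTG match in that of Nppb; a match is a string of letters, and its absence says nothing about the factor.

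Nppa was counted over only a part of its length. Of its 865 exonic bases, 30.8% lie outside the body of any other gene: exon 1, of 233 bases, and the first 33 bases of exon 2. The body of the antisense gene Gm13054 covers the rest, from 369 bases into Nppa to beyond its end; on the minus strand, that first point is the end of Gm13054. Positions under another gene's body mostly carried no counts: of 800 protein-coding genes whose body is covered by other genes but whose exons are at least 95% free of other exons, 98.5% were at 0 in all libraries. Gm13054 itself was at 2.44, 1.96 and 2.54 CPM in KO replicates 1, 2 and 3, against 2.82, 3.45 and 2.28 CPM in WT replicates 1, 2 and 3, and since the library kit does not mark strand, reads of this pair cannot be told apart where they overlap. Exons were also covered in part for Npr1 (79.5% free), Npr2 (59.6%), Corin (68.0%), Npr3 (96.6%) and Furin (98.7%), and the levels of the 9 genes are compared with each other below per kilobase (kb) of free exon.

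**Figure D2:**
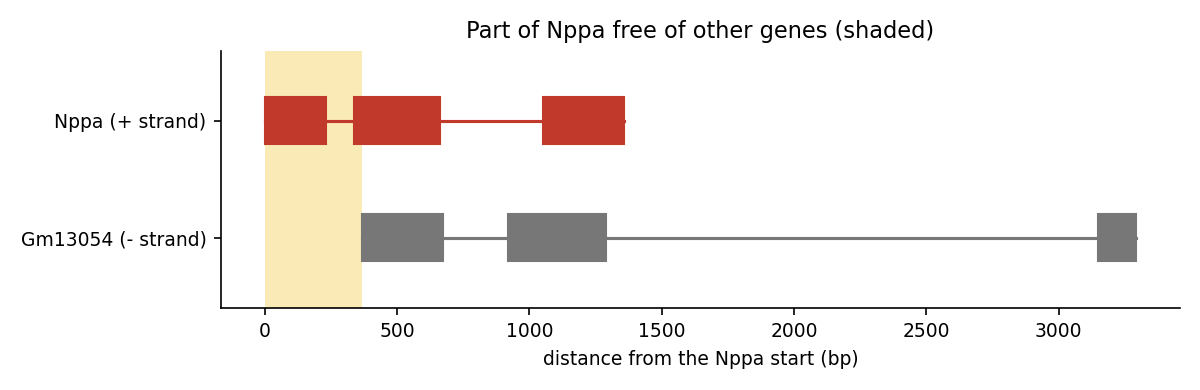
Exon blocks of Nppa (plus strand) and of the antisense gene Gm13054 (minus strand), drawn to scale against distance in bases from the start of Nppa (x axis); the shaded stretch is the part of Nppa free of other gene bodies. Gm13054, read from right to left, ends 369 bases into Nppa, so exon 1 and 33 bases of exon 2 are free.

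Per kb of free exon, Nppa stood far above all other members, at 45435 ± 8001 CPM per kb over the 6 libraries (SD, n = 6). Nppb followed at 1742 ± 707 CPM per kb, 26.1-fold lower in mean level, and Corin at 91.0 ± 20.0 CPM per kb. Npr3 was at 30.8 ± 3.67 and Npr2 at 26.6 ± 2.65 CPM per kb, and their ranges over libraries overlapped. Furin was at 9.67 ± 1.61 and Npr1 at 8.57 ± 1.31 CPM per kb, and these ranges overlapped as well. Mme was at 0.168 ± 0.032 CPM per kb, and Nppc, with 5 counts in all, at a mean of 0.0608 CPM per kb, with a range of 0 to 0.323 CPM per kb that enclosed that of Mme. The ranges of the other neighbours in this order were separate. The clearance receptor gene Npr3 had the highest mean per kb of the 3 receptor genes, 3.59-fold above Npr1 and 1.16-fold above Npr2, which was the higher of the 2 in WT replicate 2. These values take positions under other gene bodies as uncounted; per kb of all exonic bases, a setting added after the data were seen, Nppa was 8.02-fold above Nppb, and the ranges of Npr3 (23.0 to 32.7 CPM per kb) and Npr2 (13.8 to 17.8 CPM per kb) were separate. The feature type counted is not given, so reads over introns may be included. Levels per kb of exon do not allow for such reads, and the order of the genes may depend on them. By plain CPM, not per kb, 0.0272% of all tested genes had a higher mean than Nppa.

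Nppa was at 14233, 14708 and 9540 CPM in KO replicates 1, 2 and 3, against 11057, 10283 and 12694 CPM in WT replicates 1, 2 and 3. The highest and the lowest library both carried the name KO, so the KO libraries enclosed the WT libraries. The means were 12827 ± 2856 CPM in KO and 11345 ± 1231 CPM in WT (SD, n = 3 each), a log2 fold change of 0.18 (SE 0.19) (edgeR adjusted p 1.00). Grouped by the genotype field, the means were 12403 ± 1991 CPM in KO and 11768 ± 2656 CPM in WT, and the log2 fold change was 0.08 (SE 0.19, edgeR adjusted p 0.967). Between libraries the level had a coefficient of variation of 17.6%, against 0.228% from counting alone, so depth does not limit it.

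Nppb was at 984, 2317 and 1341 CPM in KO replicates 1, 2 and 3, against 683, 1401 and 1436 CPM in WT replicates 1, 2 and 3. The lowest library of each group was the one with a name starting with Old, and KO replicate 2 was highest, 3.39-fold above WT replicate 1. Only 12.1% of the tested genes varied more over the 6 libraries, by the SD of log2 CPM. Means were 1547 ± 690 CPM in KO and 1174 ± 425 CPM in WT by library name (log2 fold change 0.40, SE 0.37, edgeR adjusted p 1.00), but without KO replicate 2 the log2 fold change was -0.01. Within the numbered series alone, 2 libraries against 2, it was 0.37, and without KO replicate 3 and WT replicate 2, which Prkce puts at odds with their names, it was 0.64. Grouped by genotype field, the means were 1274 ± 252 CPM in KO and 1447 ± 822 CPM in WT, at a log2 fold change of -0.18 (SE 0.40, edgeR adjusted p 0.961).

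Adipocyte markers were also highest in KO replicate 2. All 6 markers of white and brown adipocytes were detected, and their summed level was 30.2, 153 and 53.5 CPM in KO replicates 1, 2 and 3, against 23.2, 65.9 and 39.5 CPM in WT replicates 1, 2 and 3. KO replicate 2 was thus highest and the 2 libraries named Old were lowest, as for Nppb, but WT replicate 3, next highest for Nppb, lay below WT replicate 2 and KO replicate 3 in the sum. Ucp1, the uncoupling protein of brown fat, gave 57.4 CPM of the sum in KO replicate 2 and was at 0 in WT replicate 3, and Adipoq, the adiponectin gene, was highest in WT replicate 2 at 20.5 CPM. The part of this in the Nppb levels was not tested.

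Nppc (ENSMUSG00000026241; chromosome 1, 86666291 to 86670571, minus strand) was barely detected. Its counts were 0 in all 3 KO libraries, against 0, 4 and 1 in WT replicates 1, 2 and 3. In the libraries at 0, a level up to 0.147 to 0.217 CPM, that of 3 counts, is allowed by the depth. The 4 counts of WT replicate 2 give 0.336 CPM, with a 95% Poisson interval of 0.092 to 0.861 CPM. A difference between KO and WT was not detectable at this depth.

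The ratio of Nppb to Nppa counts does not depend on library size. Because Nppa was counted in part, the ratio is read only between libraries. It was 6.92%, 15.7% and 14.1% in KO replicates 1, 2 and 3, against 6.18%, 13.6% and 11.3% in WT replicates 1, 2 and 3. Both libraries named Old were near 6% to 7%, and the numbered libraries all lay above 11%. Within each replicate number the library named KO was higher, by 0.16, 0.21 and 0.31 on the log2 scale, and within each library series as well. The mean log2 ratio was 0.23 higher in KO by library name (exact permutation test, two-sided, p = 0.5, n = 3 each), while 0.10 is the smallest p that 3 against 3 allows. The test within pairs gave an exact p of 0.25, the smallest that 3 pairs allow. By the genotype field the mean log2 ratio differed by -0.12, KO minus WT (exact permutation p = 0.7). The differences between the library series were thus larger than those between KO and WT.

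**Figure D3:**
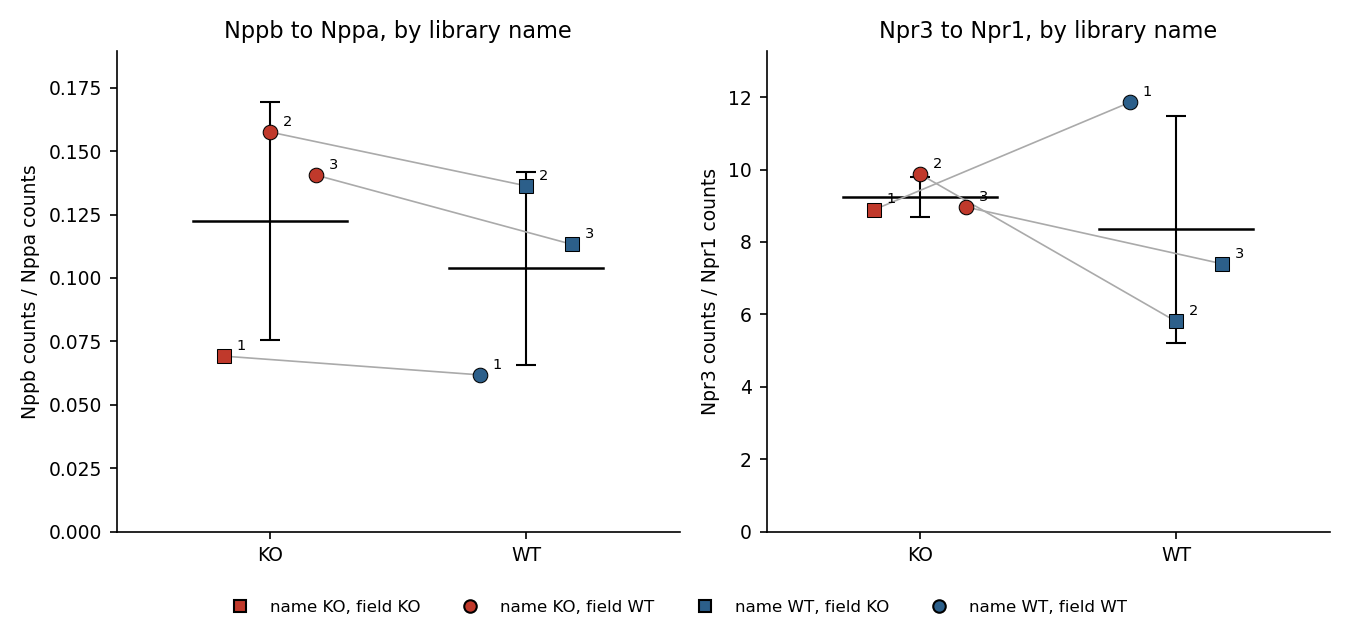
Ratio of Nppb to Nppa counts (left) and of Npr3 to Npr1 counts (right) in each library (y axes, from 0, as plain ratios), with KO left of WT by library name; lines and bars are the mean ± SD (n = 3), gray lines join libraries with the same replicate number, squares are libraries whose genotype field says KO and circles those whose field says WT. On the left the libraries at 0.0692 and 0.0618, both named Old, lie below the other 4 and every gray line is higher on the KO side; on the right the 3 squares lie below the 3 circles.

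Npr1 (ENSMUSG00000027931; chromosome 3, 90450591 to 90465866, minus strand), the guanylyl cyclase receptor of ANP and BNP, was at 30.2, 30.4 and 32.4 CPM in KO replicates 1, 2 and 3, against 25.9, 37.2 and 39.4 CPM in WT replicates 1, 2 and 3. The KO libraries lay within the range of the WT libraries. By library name the log2 fold change was -0.14 (SE 0.18, edgeR adjusted p 1.00). Grouped by genotype field, the means were 35.6 ± 4.8 CPM in KO and 29.5 ± 3.3 CPM in WT (log2 fold change 0.27, SE 0.16, edgeR adjusted p 0.906), and KO was the higher library in 3 of 3 replicate numbers, though the groups overlapped.

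Npr2 (ENSMUSG00000028469; chromosome 4, 43631935 to 43651244, plus strand), the receptor of CNP, was at 82.0, 68.6 and 71.9 CPM in KO replicates 1, 2 and 3, against 64.3, 83.0 and 74.0 CPM in WT replicates 1, 2 and 3. Among tested genes 85.8% varied more between libraries, so Npr2 was the steadiest member. The log2 fold change was 0.01 (SE 0.15, edgeR adjusted p 1.00) by library name. Under the genotype field, the 3 KO libraries lay above the 3 WT libraries, at 79.6 ± 5.0 CPM in KO and 68.3 ± 3.8 CPM in WT (log2 fold change 0.22, SE 0.13, edgeR adjusted p 0.904). The same lack of overlap was found in 12% of all genes tested, 7.48% with KO above WT and 4.49% with KO below.

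Npr3 (ENSMUSG00000022206; chromosome 15, 11839896 to 11907287, minus strand), the clearance receptor, was at 269, 300 and 290 CPM in KO replicates 1, 2 and 3, against 307, 216 and 291 CPM in WT replicates 1, 2 and 3. WT replicate 2 was the low library and the other 5 lay close together. The log2 fold change was 0.08 (SE 0.17, edgeR adjusted p 1.00) by library name and -0.21 (SE 0.15, edgeR adjusted p 0.909) by the genotype field.

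The balance between the clearance receptor and the signalling receptor, as the ratio of Npr3 to Npr1 counts, was 8.89, 9.87 and 8.96 in KO replicates 1, 2 and 3, against 11.9, 5.80 and 7.40 in WT replicates 1, 2 and 3. This is a ratio of raw counts, not per kb, and is read only between libraries. The libraries named KO sat between the highest and the 2 lowest libraries named WT. The mean log2 ratio differed by 0.21, KO minus WT, by library name (exact permutation test, two-sided, p = 0.5). By the genotype field all 3 KO libraries, at 8.89, 5.80 and 7.40, lay below all 3 WT libraries, at 9.87, 8.96 and 11.9, and the mean log2 ratio differed by -0.49 (exact permutation p = 0.1, the smallest that 3 against 3 allows). KO was lower in 3 of 3 replicate numbers, by log2 differences of -0.42, -0.77 and -0.28 (exact test within pairs, p = 0.25, the smallest that 3 pairs allow). The nearest libraries of these groups, KO replicate 1 (95% counting interval 8.13 to 9.74) and KO replicate 3 (8.27 to 9.73), could not be told apart by their counts.

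Corin (ENSMUSG00000005220; chromosome 5, 72300025 to 72504473, minus strand), the convertase of pro-ANP, was at 281, 241 and 365 CPM in KO replicates 1, 2 and 3, against 413, 292 and 414 CPM in WT replicates 1, 2 and 3. KO was the lower library within each replicate number, by log2 differences of -0.56, -0.28 and -0.18, although KO replicate 3 lay above WT replicate 2. The means were 296 ± 63 CPM in KO and 373 ± 70 CPM in WT, and the log2 fold change was -0.34 (SE 0.20, edgeR p 0.117, adjusted to 1.00). It was negative in every alternative run by library name, with -0.66 lacking the libraries at odds with Prkce, and -0.05 (SE 0.22, edgeR adjusted p 0.983) by the genotype field.

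Furin (ENSMUSG00000030530; chromosome 7, 80388585 to 80405436, minus strand), the convertase of pro-BNP and pro-CNP, was at 109, 83.9 and 66.1 CPM in KO replicates 1, 2 and 3, against 82.1, 87.5 and 96.9 CPM in WT replicates 1, 2 and 3. The highest and the lowest library were both named KO, and the log2 fold change by library name was -0.04 (SE 0.18, edgeR adjusted p 1.00). Under the genotype field, the 3 KO libraries lay above the 3 WT libraries, as in 7.48% of all genes tested, at 97.8 ± 10.9 CPM in KO and 77.4 ± 9.8 CPM in WT. That log2 fold change of 0.34 (SE 0.15) had an edgeR p of 0.041, adjusted to 0.868, and did not pass.

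Mme (ENSMUSG00000027820; chromosome 3, 63241537 to 63386030, plus strand), encoding neprilysin, was at 1.65, 2.54 and 1.96 CPM in KO replicates 1, 2 and 3, against 1.62, 1.68 and 2.19 CPM in WT replicates 1, 2 and 3. These levels rest on 20 to 50 counts per library, and counting alone gives a coefficient of variation of 18.03%, against 19.0% observed. The log2 fold change was 0.15 (SE 0.38, edgeR adjusted p 1.00) by library name and -0.13 (SE 0.37, edgeR adjusted p 0.970) by the genotype field.

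**Figure D4:**
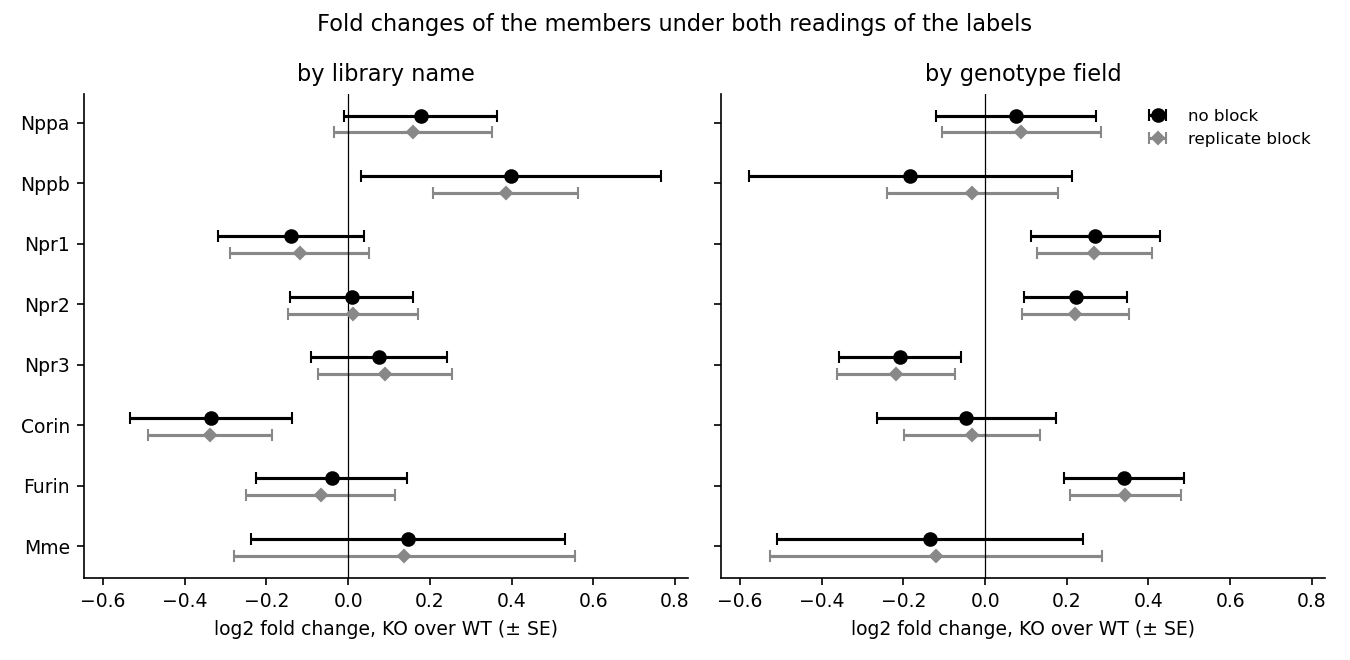
Fitted log2 fold change, KO over WT, of the 8 tested natriuretic genes by library name (left) and by genotype field (right), on a log2 axis, with bars of 1 SE; black points are the fit without a replicate block and gray diamonds that with one. By library name Nppb is highest at 0.40 and Corin lowest at -0.34; by the genotype field Furin is highest at 0.34 and Npr3 lowest at -0.21, and no gene passed the test in either fit.

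The other genes of the pathway were followed through 8 lists with 142 genes, of which 138 are in the table and 113 were tested. None of the 113 passed by library name (36 with a positive and 77 with a negative fold change, KO over WT, median -0.07, 1 at an unadjusted p under 0.05) and none by the genotype field (56 positive and 57 negative, median -0.01, 9 at an unadjusted p under 0.05). Over all tested genes the median log2 fold change was -0.02 by library name, with 45.5% positive and 1.49% at an unadjusted p under 0.05, and -0.01 by the genotype field, with 48.1% positive and 5.69% at an unadjusted p under 0.05.

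Among guanylyl cyclase genes outside the receptors and the nitric oxide synthases that feed the soluble cyclase, 0 of 7 tested genes passed, and 6 had a negative fold change by library name. By the genotype field 3 were negative. Nos3, the endothelial nitric oxide synthase, was at 13.8, 10.6 and 11.6 CPM in KO replicates 1, 2 and 3, against 8.93, 21.5 and 17.4 CPM in WT replicates 1, 2 and 3. Grouped by genotype field, its KO libraries lay above its WT libraries (log2 fold change 0.76, SE 0.21, edgeR adjusted p 0.748), as in 7.48% of all genes tested. By library name its log2 fold change was -0.40 (SE 0.29). Gucy1b1, a subunit of the soluble guanylyl cyclase that nitric oxide activates, had a log2 fold change of -0.40 (SE 0.18, edgeR adjusted p 0.868) by the genotype field and -0.12 (SE 0.22) by library name.

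Of 13 tested phosphodiesterases, the enzymes that break down cyclic nucleotides, 0 passed and 11 had a negative fold change by library name, with a median of -0.13. By the genotype field 9 were negative, with a median of -0.08. Pde5a, which is specific for cGMP, was at 6.64, 6.45 and 6.36 CPM in KO replicates 1, 2 and 3, against 9.94, 7.90 and 8.01 CPM in WT replicates 1, 2 and 3. The KO libraries lay below the WT libraries without overlap, as in 2.62% of all genes, at a log2 fold change of -0.41 (SE 0.22, edgeR adjusted p 1.00). By the genotype field it was -0.01. Pde4b, which breaks down cyclic AMP, had a log2 fold change of -0.36 (SE 0.18, edgeR adjusted p 1.00) by library name and -0.09 (SE 0.21) by the genotype field.

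Among 12 tested cGMP kinases and kinase targets, 0 passed, with 8 positive and 4 negative fold changes by library name. By the genotype field 4 were positive and 8 negative. Prkg1, the main cGMP-dependent kinase of muscle, was at 12.3, 9.05 and 23.7 CPM in KO replicates 1, 2 and 3, against 12.8, 28.8 and 24.4 CPM in WT replicates 1, 2 and 3, so that the groups overlapped (log2 fold change -0.54, SE 0.39, edgeR adjusted p 1.00). By the genotype field its log2 fold change had the other sign, at 0.51 (SE 0.40, edgeR adjusted p 0.909). Kcnma1, the pore subunit of the large-conductance potassium channel that the kinase acts on, averaged 1.28 ± 0.35 CPM in KO and 0.837 ± 0.259 CPM in WT by library name. Its log2 fold change was 0.61 (SE 0.49) by library name and -0.21 (SE 0.50) by the genotype field. Of 9 other proteases that act on peptide hormones, 0 passed. Ace, the angiotensin-converting enzyme, had a log2 fold change of 0.45 (SE 0.19, edgeR adjusted p 0.868) by the genotype field and -0.13 (SE 0.24) by library name.

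The 34 tested regulators of Nppa and Nppb transcription had 32 negative and 2 positive fold changes by library name, where 45.5% of all genes were positive, with a median of -0.20, and 0 passed. In the numbered series alone 24 of 34 were negative (median -0.19), and without WT replicate 1, 25 of 34 (median -0.10). Grouped by genotype field, 22 were positive and 12 negative, and without KO replicate 2 the split was 14 positive and 20 negative. Single genes with an unadjusted p under 0.05 were Mrtfa by library name (log2 fold change -0.52, SE 0.23) and Nkx2-5, Tbx2 (0.61, SE 0.27) and Tbx18 (-0.53, SE 0.21) by the genotype field. In the other reading Mrtfa was at 0.465 by the genotype field, and Tbx2 at 0.12 and Tbx18 at -0.07 by library name.

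Nkx2-5, a homeobox factor that activates Nppa, was the list gene whose call depended on the fit. It was at 30.5, 20.3 and 20.2 CPM in KO replicates 1, 2 and 3, against 21.9, 49.5 and 35.0 CPM in WT replicates 1, 2 and 3. Under the genotype field, this is 38.4 ± 9.9 CPM in KO and 20.8 ± 0.94 CPM in WT, with KO higher in 3 of 3 replicate numbers. The log2 fold change was 0.88 (SE 0.19) and the edgeR adjusted p 0.551; with the replicate number as a block they were 0.85 (SE 0.17) and 0.031. With the block, 51 genes passed by the genotype field, or 0.347% of those tested, against 2 without it. The call was also made with DESeq2 (adjusted p 0.028) and without the low-count filter (edgeR adjusted p 0.0062), and not in the other alternatives, where the adjusted p reached 1.00 without WT replicate 2. Without the libraries at odds with their fields the log2 fold change was 0.91 (edgeR adjusted p 0.837). By library name the log2 fold change was -0.58 (SE 0.28, edgeR adjusted p 1.00).

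Some ventricular markers followed the same split, above all Myl2. Myl2, the ventricular regulatory myosin light chain, rose by the genotype field, at 251, 357 and 174 CPM in KO replicate 1, WT replicate 2 and WT replicate 3 (field KO), against 25.6, 33.3 and 32.6 CPM in KO replicate 2, KO replicate 3 and WT replicate 1 (field WT). Its log2 fold change was 3.09 (SE 0.25, edgeR adjusted p 0.0039). Without KO replicate 2 and WT replicate 3, at odds with their fields, it was 3.19 (edgeR adjusted p 0.0028). The log2 fold change was as large where it did not pass: 3.16 without KO replicate 3 (edgeR adjusted p 0.071), 3.13 without WT replicate 1 (0.146) and 3.16 in the numbered series alone (0.344). Myl3, another ventricular light chain, averaged 159 ± 32 CPM in the field-KO and 69.2 ± 12.9 CPM in the field-WT libraries (edgeR adjusted p 0.213, and 9.2e-05 with the replicate block), while Hey2, Lrrc10 and Kcnj2 had log2 fold changes of 0.07, 0.06 and 0.03 and overlapping groups, and Irx4, with 34 counts in all, was not tested. All 6 ventricular markers were detected, none at 0 throughout. Their summed level, mostly from Myl2, Myl3 and Lrrc10, was 427 to 636 CPM in the field-KO libraries, against 188 to 227 CPM in the field-WT libraries. The atrial sum was 22640 to 24810 CPM in the field-KO and 22086 to 25840 CPM in the field-WT libraries. It overlapped in this reading but not by library name. The field-KO libraries are also those with the higher Furin, Npr2 and Nkx2-5; the part of these marker levels in the differences was not tested.

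**Figure D5:**
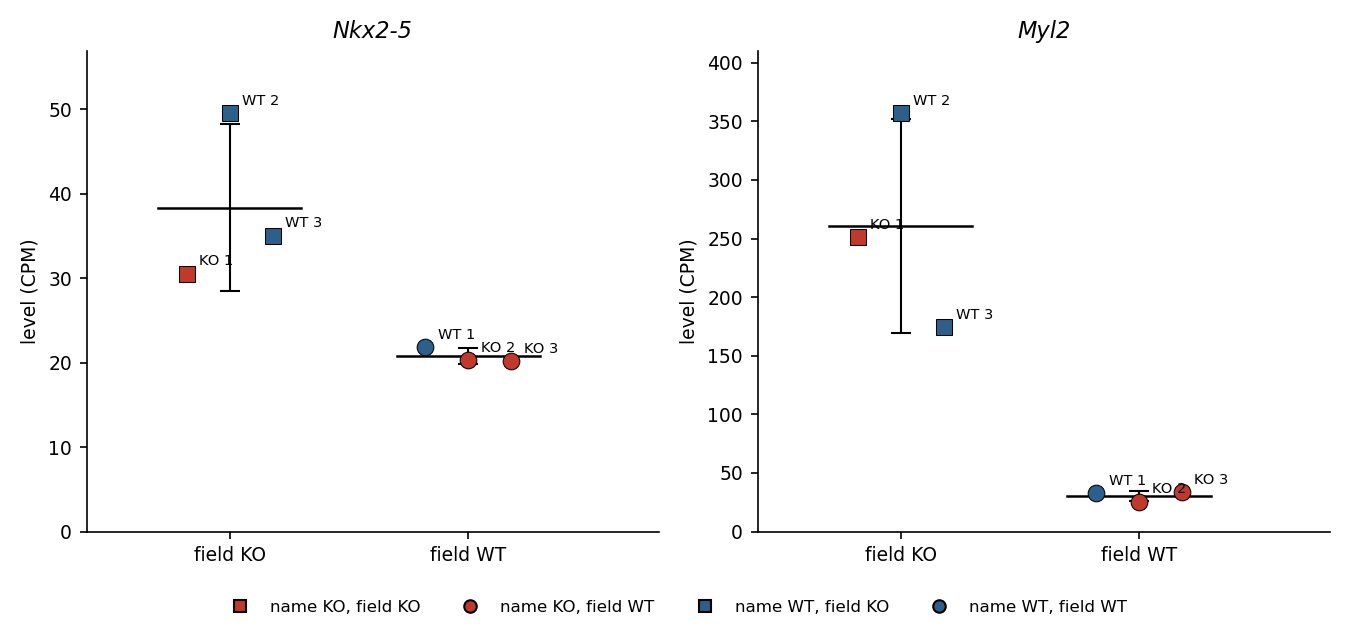
Level in CPM (y axes, from 0) of Nkx2-5 (left) and Myl2 (right) in each library, grouped by genotype field with KO left of WT; labels give the library name and replicate, and lines and bars are the mean ± SD (n = 3). All 3 field-KO libraries lie above all 3 field-WT libraries in both panels, as in 7.48% of all genes tested.

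Genes of the secretory granule, through which atrial cells store and release ANP, gave 0 of 14 past the test, with 7 positive and 7 negative fold changes by library name. By the genotype field 4 were positive and 10 negative. Snap25 and Syt1, which drive vesicle fusion in neurons, were high in KO replicate 2, at 10.4 and 9.05 CPM, and at most 3.45 and 2.27 CPM in the other 5 libraries. Of 11 tested neighbours of the Nppa and Nppb locus, 0 passed. By the genotype field the log2 fold change was 0.35 (SE 0.14) for Plod1, a collagen lysyl hydroxylase, and 0.44 (SE 0.13) for 2510039O18Rik, with edgeR adjusted p of 0.868 and 0.768. By library name it was -0.02 for Plod1 and -0.13 for 2510039O18Rik. Of 13 tested stretch and load genes 0 passed, and 4 listed genes were at 0 in all libraries. From the lists above, Srf, which encodes serum response factor, and Pde2a were also at 0 throughout. Such a 0 need not mean an absent transcript. Of protein-coding genes whose body is covered by other genes, 98.15% were at 0, against 19.6% of those at least 50% free. Which case applies to each of these genes is not given here. Trpv4, a mechanosensitive cation channel, had a log2 fold change of 0.65 (SE 0.24, edgeR adjusted p 0.822) by the genotype field and -0.13 (SE 0.31) by library name.

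Over the 6 libraries, 10535 tested genes with a mean of at least 5 CPM were ranked by how near their centred log2 CPM profile lay to each member's, as a root mean square difference in log2 units. Nearest to Nppa were Zbtb7b (0.078), Aldh18a1 (0.083) and Prkar1a (0.084), while Nppb, at 0.519, ranked 9875. Seen from Nppb, which varies more, the same distance put Nppa at rank 3163. Nearest to Nppb were Itih4 (0.099), Gm9531 (0.128) and Cidea (0.149). Cidea, a lipid droplet protein of adipocytes and 1 of the adipocyte markers above, was at 17.1, 41.1 and 20.4 CPM in KO replicates 1, 2 and 3, against 10.1, 22.1 and 18.6 CPM in WT replicates 1, 2 and 3. Nearest to the other members were Cryab, Gm17501 and Tpm3 for Npr1, Ngdn, Mgat1 and Rfng for Npr2, mt-Co1, Ranbp6 and Mettl3 for Npr3, Zfp536, Fam13a and Zfp383 for Corin, Tsfm, Shmt2 and 2310022A10Rik for Furin, and Heatr1, Eif4a1 and Cmpk1 for Mme. These profiles share library and depth, and with 6 points near profiles are a description only.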

How the data were processed

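The deposited table holds raw read counts per Ensembl gene, not normalized, for 6 libraries. Per the labels' protocols, libraries came from 1 µg of total RNA of flash-frozen atria (TruSeq RNA v2, which does not mark strand). Per the submitters' processing notes, the authors worked with GRCm38, the aligner HISAT2 2.1.0, the counter featureCounts 1.5.0-p3 and, for quality reports, FastQC 0.11.5 and MultiQC 1.7. Which annotation, feature type and strand option were used is not given in the sources used here. Coordinates are from GENCODE M21 and promoter sequences from RefSeq.

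Counts were tested with edgeR 4.0.16 (R 4.3.3; TMM, filterByExpr, robust quasi-likelihood F test, two-sided, Benjamini-Hochberg over 14708 genes, threshold 0.05), with DESeq2 1.42.0 and limma 3.58.1 as alternatives. The SE was obtained by dividing the size of the log2 fold change by √F. CPM are scaled by TMM factors (0.946 to 1.03). Single-library intervals are 95% Poisson intervals of the count; intervals and the floor of 3 counts cover counting error only. Ratios of counts were compared by exact permutation over libraries. The edgeR script was tested on simulated counts of 14708 genes, of which 200 were changed between the groups by library name. It recovered 48% of them at a 2-fold change, with 9 false calls, and 91.5% at a 4-fold change, with 7 false calls. The fitted change of every tested member was below 2-fold in both readings.

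Each comparison was fitted by library name and again by the genotype field. Other settings were DESeq2's size factors, no low-count filter, the replicate number as a block, library series or Y-linked level as a covariate, abundant genes left out of library sizes, a threshold of 0.1, the numbered series alone, a pseudocount of 0.5 for the ratios, the libraries at odds with Prkce left out, and each library left out in turn. The titles number the replicates but do not call them pairs. Deviations from the group means of same-numbered libraries correlated across genes at 0.157, 0.162 and 0.121 by library name and 0.269, 0.227 and 0.121 by the genotype field. By the genotype field the best match of KO replicate 3 had replicate number 2. The replicate numbers were taken as pairs on these weak correlations alone, and all results within replicate numbers or with the replicate block rest on that choice.

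The members and lists were chosen with earlier results of these data known. Named were all members, Prkce, from each list the genes at unadjusted p under 0.05 in either comparison (or else the 2 smallest by library name), the 3 nearest profiles per member, and genes overlapping Nppa; Myl2 and the other marker genes given with values were singled out after those values were seen.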

Additional observations from a re-analysis of the deposited data

How the results depend on the processing

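No member passed the test under any setting in either reading. Of 128 alternative values of members' log2 fold changes by library name, 115 kept their direction, and those of Corin, Nppa and Npr1 never turned; by the genotype field 117 of 128 did, and those of Furin, Npr1, Npr2 and Npr3 never turned. The lowest adjusted p was 0.952 by library name and 0.418 by the genotype field (Furin, replicate block). The replicate block changed no member's call; by library name it gave 0 called genes and by the genotype field 51, against 2 without it.

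By library name the sign turned with the Y-linked level as covariate for Npr2 (-0.0075), Npr3 (-0.0018) and Mme (-0.041), in the numbered series alone for Npr2 (-0.15), and without the libraries at odds with Prkce for Npr3 (-0.072) and Furin (0.11). Leaving out each library in turn gave -0.012 to 0.64 for Nppb, -0.081 to 0.11 for Npr2, -0.056 to 0.17 for Npr3, -0.24 to 0.12 for Furin and -0.028 to 0.31 for Mme, -0.11 to 0.60 for the log2 ratio of Nppb to Nppa, and -0.021 to 0.49 for that of Npr3 to Npr1. By the genotype field it turned in the numbered series alone for Nppa (-0.082) and Corin (0.22), and without the libraries at odds with Prkce for Nppb (0.22) and the ratio of Nppb to Nppa (0.059). Leaving out each library gave -0.054 to 0.27 for Nppa, -0.53 to 0.33 for Nppb, -0.25 to 0.11 for Corin, -0.29 to 0.046 for Mme and -0.54 to 0.16 for the ratio of Nppb to Nppa. By library name, the Y-linked covariate moved the log2 fold change of Nppa from 0.18 to 0.02 and that of Nppb from 0.40 to 0.19. Those of Npr1, Corin and Furin grew in size, from -0.14, -0.34 and -0.04 to -0.31, -0.45 and -0.18. The cause of these turns and shifts was not tested.

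The number of genes past the test by library name, 0, was 1 without the low-count filter, 3 in the numbered series alone, 6 without the libraries at odds with Prkce, and 0 to 4 with each library left out. By the genotype field, 2, it was 27 with DESeq2, 1 with limma-voom, 25 without the low-count filter, 51 with the replicate block, 7 with the library series as covariate, and 0 to 2 with each library left out. With 3 libraries per group, 2 readings of the labels and Nppa counted over part of its length, these data limit what can be said of small differences; nothing in the labels resolves the readings. Counting all exonic bases, a setting added after the data were seen, lowered the mean level of Nppa over Nppb per kb to 8.02-fold, against 26.1-fold over free exonic bases.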

Other observations

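Beyond the adipocyte and ventricular markers, other cell type lists also varied between libraries. The 6 epicardial and mesothelial markers summed to 138, 172 and 200 CPM in KO replicates 1, 2 and 3, against 188, 218 and 240 CPM in WT replicates 1, 2 and 3. All 6 had a negative fold change by library name, with a median of -0.34. In that reading 0 passed edgeR's test and 2 had an unadjusted p under 0.05, where 1.49% of all tested genes did. By the genotype field all 6 had a positive fold change, with a median of 0.08 and 0 at an unadjusted p under 0.05. The 7 sinoatrial node markers summed to 89.3, 132 and 83.8 CPM in KO replicates 1, 2 and 3, against 107, 153 and 93.8 CPM in WT replicates 1, 2 and 3, so that KO by library name was lower within each replicate number. Of the 6 tested sinoatrial markers, 0 had a positive fold change by library name and 5 by the genotype field. In both readings 0 of the 6 passed edgeR's test and 0 had an unadjusted p under 0.05. Over all tested genes, 45.5% had a positive fold change by library name and 48.1% by the genotype field. Markers of red blood cells summed to 127, 91.6 and 41.4 CPM in KO replicates 1, 2 and 3, against 146, 62.9 and 88.4 CPM in WT replicates 1, 2 and 3. Alas2 was at 0 in all, which, as above, need not mean an absent transcript. By the genotype field the 2 tested skeletal muscle markers had positive fold changes, with a median of 0.54. Both had an unadjusted edgeR p under 0.05, where 5.69% of all tested genes did, and 0 passed. By library name both were negative, with a median of -0.26. Lymphocyte markers summed to 6.41 to 10.3 CPM in the libraries named KO, against 5.65 to 6.39 CPM in those named WT. The part of these lists in the natriuretic levels was not tested.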
